A study of Mus musculus with 24 samples.

Results

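A set of nitric oxide and cyclic GMP signalling genes was followed in mouse thoracic aorta after chronic feeding of cyclooxygenase inhibitors. They were Nos3, Cav1, Prmt1, Ddah1, Ddah2, Gucy1a3, Gucy1b3, Npr1, Prkg1 and Pde5a, taken by symbol from the deposited gene count table, and make up 10 of its 25941 genes. All 10 passed the filter on low counts, which left 14451 genes for testing. The 24 libraries came from the aorta of adult male wild-type C57BL/6 mice, 10 to 12 weeks old, collected at zeitgeber time 11, which is counted in hours from lights on. In each group were 8 libraries. Controls ate regular chow with no drug, the celecoxib group ate chow that delivered 100 mg/kg/day, and the rofecoxib group ate chow that delivered 50 mg/kg/day, in each case for 3 weeks. Celecoxib and rofecoxib each block the inducible cyclooxygenase, encoded by Ptgs2, in preference to the constitutive form. The 2 doses differ, so a difference between the drugs is also one between doses. The design text speaks of 8 biological replicates per condition. No label ties a library to an animal, so the p-values measure the spread between these libraries. The numbers in the library titles run by group, with the controls in a separate, higher run. What they stand for is not stated, and anything that goes with them cannot be told apart from the group.

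In the vessel wall, endothelial cells make nitric oxide from arginine, and the gas passes into the neighbouring smooth muscle cells, where it binds soluble guanylate cyclase and raises cyclic GMP. Cyclic GMP activates a protein kinase that relaxes the muscle cell, and phosphodiesterases end the signal. Methylated arginines, released when methylated proteins are degraded, compete with arginine at the synthase and are themselves broken down by specific hydrolases, while natriuretic peptides raise cyclic GMP through a separate receptor at the cell surface.

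Promoter sequences are shown for Gucy1b3, for Gucy1a3 and Pde5a, each of which correlated with Gucy1b3 across libraries as described below, and for Npr1, the member with the smallest p between the drugs. Each run is the 250 bases before the transcription start, 5′ to 3′ along the gene, from RefSeq on GRCm38.p6. Gucy1a3, listed there as Gucy1a1, lies at chr3:82145651-82145900 on the minus strand, before the first of 2 listed starts. Gucy1b3, listed as Gucy1b1, lies at chr3:82074712-82074961 on the minus strand, Pde5a at chr3:122728908-122729157 on the plus strand, and Npr1 at chr3:90465867-90466116 on the minus strand. Capitals mark matches on either strand to the GC box GGGCGG, read as CCGCCC on the other strand, and to the CCAAT box, read as ATTGG on the other strand.
Gucy1a3: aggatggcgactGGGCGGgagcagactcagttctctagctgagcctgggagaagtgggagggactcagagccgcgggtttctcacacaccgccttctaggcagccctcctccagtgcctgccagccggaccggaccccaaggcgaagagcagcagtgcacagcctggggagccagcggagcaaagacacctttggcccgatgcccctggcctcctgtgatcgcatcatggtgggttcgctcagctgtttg
Gucy1b3: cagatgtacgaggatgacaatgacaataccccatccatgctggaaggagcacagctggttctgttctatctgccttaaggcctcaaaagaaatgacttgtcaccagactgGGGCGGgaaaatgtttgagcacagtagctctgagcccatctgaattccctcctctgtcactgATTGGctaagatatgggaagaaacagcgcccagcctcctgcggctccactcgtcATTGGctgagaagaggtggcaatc
Pde5a: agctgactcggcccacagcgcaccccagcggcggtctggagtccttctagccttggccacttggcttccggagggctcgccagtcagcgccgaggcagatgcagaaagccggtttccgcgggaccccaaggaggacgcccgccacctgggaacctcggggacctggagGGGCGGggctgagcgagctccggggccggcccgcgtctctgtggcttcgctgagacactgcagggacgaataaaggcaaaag
Npr1: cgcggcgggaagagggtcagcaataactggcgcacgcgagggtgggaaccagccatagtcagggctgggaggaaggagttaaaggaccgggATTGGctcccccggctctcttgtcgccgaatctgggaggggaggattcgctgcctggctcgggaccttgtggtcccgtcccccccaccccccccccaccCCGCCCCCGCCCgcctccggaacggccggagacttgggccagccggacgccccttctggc

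All 4 windows held a GC box, with 1 match in Gucy1a3, Gucy1b3 and Pde5a and 2 in Npr1. The CCAAT box had 2 matches in Gucy1b3, 1 in Npr1 and 0 in Gucy1a3 and Pde5a. Of 32851 RefSeq windows of the same length, 32.7% held the GC box and 33.8% the CCAAT box. None of the 4 windows held the CArG box bound by serum response factor (1.5% of all windows), the letters TATAAA (12.4%) or the AP-1 motif TGANTCA (6.75%). The GC content of these windows was 64% for Gucy1a3, 51.2% for Gucy1b3, 68.4% for Pde5a and 70.4% for Npr1, against a median of 52.4%. RefSeq windows matched 9 of the 10 members, all except Nos3. The 4 shown were chosen by their expression results, and motifs in the other matched windows are not given, so the 4 do not stand for the members.

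By the table's mm9 coordinates, 5 members lie on chromosome 3, which holds 4.78% of the genes tested. Gucy1b3 (81835724 to 81878835) and Gucy1a3 (81896148 to 81950001) are neighbours there, 17312 bases apart with 0 genes of the table between them. Npr1 (90254311 to 90269990), Pde5a (122431874 to 122562494) and Ddah1 (145421437 to 145557443) lie further along. Nos3 is on chromosome 5 (23870426 to 23890494), Cav1 on chromosome 6 (17256133 to 17291654), Prmt1 on chromosome 7 (52231157 to 52242064), Ddah2 on chromosome 17 (35195778 to 35199242) and Prkg1 on chromosome 19 (30643526 to 31839514). Of the members, 5 overlap another gene of the table, and without stated strand use the reads of such pairs could not be told apart. Nos3 overlaps Atg9b and Gm15587, Cav1 overlaps Gm15581, Npr1 overlaps Gm16048, Ddah2 overlaps Clic1 at its edge, and Prkg1 spans Cstf2t. Cstf2t had a mean of 828.5 counts per control library, and Prkg1 had 71 to 127.

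Levels are given as CPM, the counts of a gene relative to the scaled size of its library. Per kilobase of exon, Cav1 was the most abundant member. In controls its level was 287 ± 21 CPM per kb (SD, n = 8), followed by Npr1 at 96.1 ± 5.57 and Gucy1b3 at 64.8 ± 9.23 on the same scale. Ddah2 (37.2 ± 2.45), Gucy1a3 (33.3 ± 3.29) and Pde5a (26.3 ± 2.73) came next, and then Prmt1 (17.1 ± 0.709) and Nos3 (9.45 ± 1.83). Prkg1 (0.440 ± 0.0793) and Ddah1 (0.293 ± 0.117) were the lowest, at the 11.8th and 7.99th percentile of the genes tested. These are levels as counted. The counter and annotation are not named and Prkg1 spans another gene, so its counted level may understate its level in the tissue, which was not tested. In this order the control ranges overlapped between Ddah2 and Gucy1a3, between Gucy1a3 and Pde5a and between Prkg1 and Ddah1. They did not overlap between the other neighbours. Of the pair that hydrolyses methylarginines, Ddah2 was therefore the abundant form in these aortas, with 33.8 to 40.7 CPM per kb against 0.177 to 0.537 for Ddah1. Per kb, the beta subunit gene of guanylate cyclase stood above the alpha subunit gene. The ratio was 1.94 ± 0.161 in control, 1.83 ± 0.181 in celecoxib and 1.85 ± 0.160 in rofecoxib libraries (SD, n = 8 each). In CPM, not divided by length, it was 1.09 ± 0.0905, 1.03 ± 0.102 and 1.045 ± 0.0902 in the same order. The ratio per kb thus rests on exon lengths of 3.93 kb for Gucy1b3 and 6.97 kb for Gucy1a3. Whether reads were counted over these same exons is not known.

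**Figure D1:**
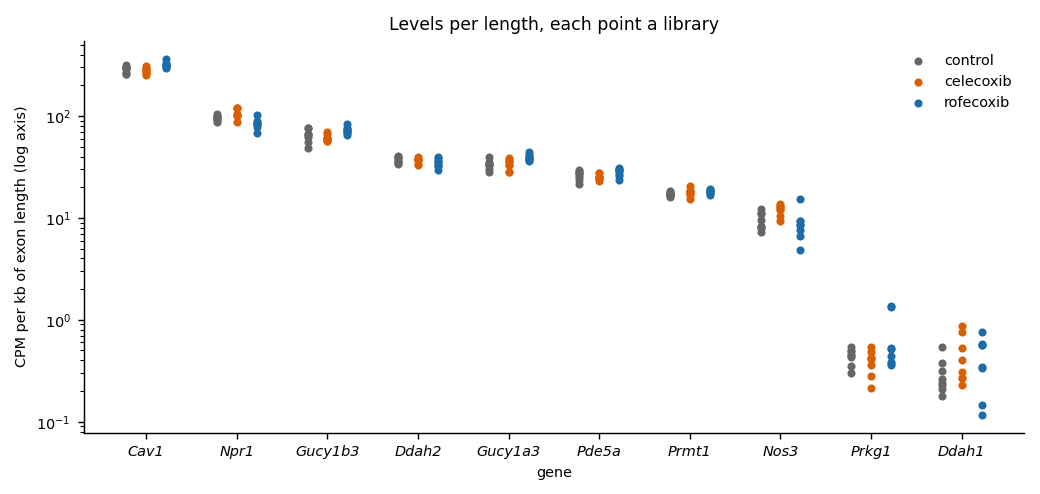
Level of each member per kilobase of exon (CPM per kb, log axis), each point 1 library, coloured by group. Cav1 is the highest in every group, with control libraries at 256 to 314, and Prkg1 and Ddah1 lie apart below all other members, with control libraries under 0.54.

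Library totals ran from 21652432 to 21687906 counts, and libraries of a group correlated at r = 0.962 to 0.994 over genes. The tissue labels were checked against markers. All 10 smooth muscle and all 14 endothelial markers were detected, with Pecam1 at 295 ± 46.4 CPM and Acta2 at 16024 ± 1845 CPM in controls (SD, n = 8). Some libraries stood apart. The slope of log2 CPM on transcript GC fraction was -2.27 and -2.74 in rofecoxib 7 and 8, against -1.13 to -0.139 in the other rofecoxib libraries. At the other end, celecoxib 7 and 8 had the highest slopes of all libraries, 1.849 and 1.804. The other celecoxib libraries had -0.588 to 1.14. Group means of this slope were 0.31 ± 0.83 in control, 0.77 ± 0.89 in celecoxib and -1.08 ± 0.96 in rofecoxib libraries. Control 6 had the highest brown and white adipocyte marker scores, and rofecoxib 2 the lowest fibroblast score. Rofecoxib 2 also had the highest cardiac muscle score, 6.17, where no other library was above 3.56. The log2 fold change of a gene followed its GC content with Spearman's rho of 0.20 for celecoxib against control, -0.53 for rofecoxib against control and 0.59 for celecoxib against rofecoxib, over 12130 genes. Results that were called, or came near the threshold, are therefore also given after a correction that removes the trend on GC within each library, and the plot of fold changes shows it for every member. A GC difference of technical origin and one of biological origin cannot be told apart here.

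Between celecoxib and control, 0 of the 10 members were called by edgeR's quasi-likelihood test at a Benjamini-Hochberg adjusted p under 0.05, where 1.41% of all genes tested were called, 0.913% higher and 0.498% lower. DESeq2 also called 0, and 2 members, Nos3 and Npr1, had an unadjusted edgeR p under 0.05, where 17.3% of all genes did. Between rofecoxib and control, 1 of 10 was called, Gucy1a3, which was higher, where 5.3% of all genes were called, 2.43% higher and 2.87% lower. At an unadjusted p under 0.05 the count was 5 of 10, against 27.1% of all genes. Between celecoxib and rofecoxib 6 of 10 were called, where 22.7% of all genes were, 11.5% higher and 11.2% lower. Here 7 of 10 had an unadjusted p under 0.05, against 36% of all genes. Nos3 and Npr1 were higher with celecoxib, and Cav1, Gucy1a3, Gucy1b3 and Prkg1 were lower. After GC correction the counts were 0 of 10 (2.12% of all genes), 1 of 10 (1.58%) and 0 of 10 (9.9%). The member called after correction was Prmt1, higher with rofecoxib than in controls. Both comparisons with control share the same 8 control libraries.

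Markers of other cell types moved in the same comparisons, and their part in the members' differences was not tested. Against control, rofecoxib libraries had 3 of 10 fibroblast markers (Col1a1, Col1a2 and Clec3b) and 3 of 10 macrophage markers (Cd14, C1qc and Fcer1g) called lower, with all 10 macrophage markers at an unadjusted edgeR p under 0.05, and 2 of 6 tested cardiac muscle markers (Actc1 and Ryr2) called higher. With GC correction these counts were 2, 0 and 2. Summed levels in control, celecoxib and rofecoxib libraries were 10447 to 14754, 10745 to 15328 and 8362 to 11692 CPM for fibroblast markers and 245 to 405, 179.9 to 381 and 135 to 284 CPM for macrophage markers. For cardiac muscle markers they were 60.0 to 99.7, 81.0 to 105 and 69.5 to 524 CPM, with medians of 67.3, 91.0 and 94.5 CPM. Rofecoxib 2 stood apart in the score of these markers, as given above. Between the drugs, 4 of 10 fibroblast markers were called higher with celecoxib (Col1a1, Col1a2, Pi16 and Gsn), and 3 of 10 were with GC correction. Brown adipocyte markers had a median log2 fold change of -0.90 for celecoxib and -0.55 for rofecoxib against control. Of these 8 markers 0 were called in either comparison, while 4 and 3 had an unadjusted edgeR p under 0.05. Between the drugs 1 of the 8 was called lower with celecoxib. Of 4 tested skeletal muscle markers, 1 was called higher with celecoxib than in controls. None of these markers was at 0 in every library.

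The median log2 fold change of the 10 members was 0.00 for celecoxib against control, 0.13 for rofecoxib against control and -0.08 for celecoxib against rofecoxib. Over all genes tested the medians were -0.01, -0.00 and -0.00. The median size of the change, taken without its sign, was 0.07, 0.17 and 0.21 for the members and 0.09, 0.12 and 0.14 for all genes. No member had groups without overlap in any comparison, which 0.298%, 0.567% and 1.67% of all genes tested had. Leaving out rofecoxib 7 and 8 took the members called from 1 to 0 for rofecoxib against control and from 6 to 3 for celecoxib against rofecoxib, and the genes called from 766 to 37 and from 3275 to 1326.

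**Figure D2:**
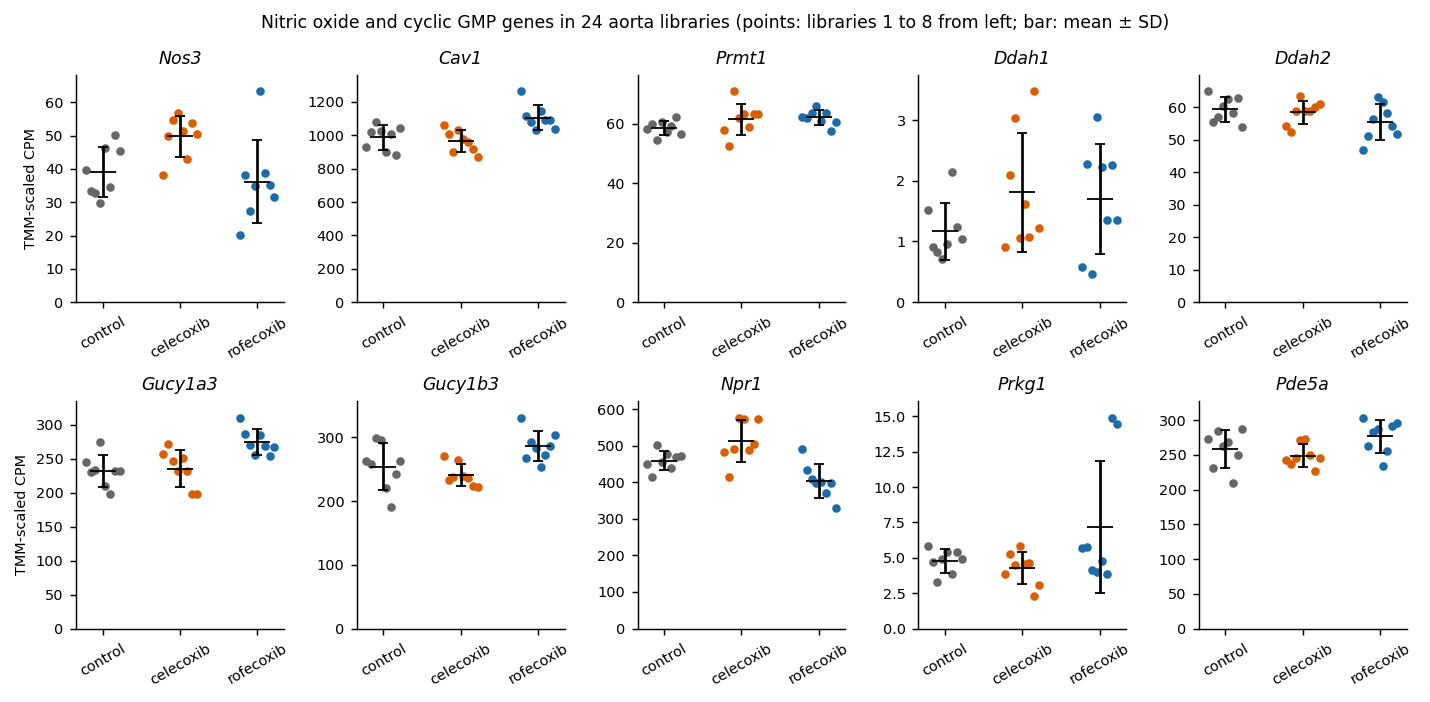
Level of each member in each library (CPM scaled by trimmed mean of M values, linear axes from 0), libraries 1 to 8 from left in each group, with the bar at the mean and whiskers of 1 SD. All groups overlap in every gene, and Prkg1 is set apart by rofecoxib 7 and 8 at 14.9 and 14.4 CPM.

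Nos3, the endothelial nitric oxide synthase, had its highest group mean with celecoxib. Control libraries ran from 29.8 through a median of 37.2 to 50.3 CPM, celecoxib libraries from 38.3 through 51.0 to 56.7, and rofecoxib libraries from 20.2 through 35.1 to 63.3. The groups overlapped: 7 of 8 celecoxib libraries lay above the control mean, and the rofecoxib group held both the lowest library of all, rofecoxib 1, and the highest, rofecoxib 5. Group means were 39.0 ± 7.54, 49.8 ± 6.20 and 36.2 ± 12.5 CPM (SD, n = 8). The log2 fold change was 0.35 ± 0.16 (SE) for celecoxib against control (edgeR adjusted p = 0.251) and -0.11 ± 0.16 for rofecoxib against control (edgeR adjusted p = 0.69), and neither passed the threshold.

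Between the drugs, Nos3 was higher with celecoxib by a log2 fold change of 0.46 ± 0.16 (edgeR adjusted p = 0.0399), and all 8 celecoxib libraries lay above the rofecoxib mean. After GC correction the difference was 0.29 ± 0.15 and was not called (edgeR adjusted p = 0.214), where genes of the same GC content as Nos3 differed by 0.17. Without rofecoxib 7 and 8 it was 0.42 (edgeR adjusted p = 0.128). In all, 8 of the 14 alternatives other than leaving out 1 library lost the call, with edgeR adjusted p-values of 0.0503 to 0.214. The call was also lost, with edgeR adjusted p-values of 0.0513 to 0.0781, when any 1 of celecoxib 3, 4, 5, 7 or 8 or rofecoxib 1, 2, 3, 4, 7 or 8 was left out. Without rofecoxib 5, the high library, the difference was 0.62 (edgeR adjusted p = 0.00266). In bulk tissue, fewer cells of a type and less RNA per cell cannot be told apart. The summed level of the 14 endothelial markers was 857 to 1121 CPM in control, 906 to 1283 in celecoxib and 686 to 1376 in rofecoxib libraries, with none of them at 0 throughout. With the endothelial marker score, the mean log2 CPM of those markers, as a covariate, the difference in Nos3 between the drugs was 0.48 ± 0.11 (edgeR adjusted p = 0.00441).

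Cav1 encodes caveolin-1, the scaffold protein of caveolae that binds and holds back the endothelial synthase. Its level ran from 883 through 1016 to 1081 CPM in control, from 873 through 971 to 1064 in celecoxib and from 1031 through 1091 to 1263 in rofecoxib libraries. Every rofecoxib library lay above the control mean, yet the ranges overlapped in each comparison. The log2 fold change was -0.03 ± 0.05 for celecoxib against control (edgeR adjusted p = 0.803) and 0.16 ± 0.05 for rofecoxib against control, which missed the threshold (edgeR adjusted p = 0.0569). Leaving out control 3 or rofecoxib 4 brought the latter past it, at 0.0458 to 0.048. DESeq2 called it as well (DESeq2 adjusted p = 0.0353), as did the fit with the endothelial marker score as a covariate (edgeR adjusted p = 0.0481). After GC correction it was 0.07 ± 0.05 (edgeR adjusted p = 0.465). Celecoxib against rofecoxib gave -0.20 ± 0.05 (edgeR adjusted p = 0.0112), which held in all 24 fits that left out 1 library and without rofecoxib 7 and 8 (-0.22, edgeR adjusted p = 0.024). After GC correction it was -0.08 ± 0.05 and was not called (edgeR adjusted p = 0.332), where genes of the same GC content differed by -0.12.

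Prmt1 encodes the main enzyme that places asymmetric dimethyl groups on protein arginines. Its level was the steadiest of the members in control and rofecoxib libraries, with a coefficient of variation of 4.14% and 4.01%. It ran from 54.6 through 58.9 to 62.3 CPM in control, from 52.5 through 62.5 to 70.9 in celecoxib and from 57.7 through 62.2 to 66.0 in rofecoxib libraries. The groups overlapped, and the log2 fold changes were 0.07 ± 0.05 for celecoxib against control, 0.08 ± 0.05 for rofecoxib against control and -0.02 ± 0.05 for celecoxib against rofecoxib (edgeR adjusted p = 0.449, 0.237 and 0.842). After GC correction the rofecoxib difference from control was 0.15 ± 0.04 (edgeR adjusted p = 0.0339). Genes of the GC content of Prmt1 were lower with rofecoxib by -0.07, so this call rests on the correction. With GC correction and the replicate number as a block the rofecoxib group held 0 called members.

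Ddah1 and Ddah2 encode the dimethylarginine hydrolases, which break down the methylated arginines that inhibit nitric oxide synthases. Ddah1 had few counts, with 15 to 47 counts in control, 20 to 75 in celecoxib and 10 to 67 in rofecoxib libraries. Its level ran from 0.706 through 1.0 to 2.14 CPM in control, from 0.913 through 1.41 to 3.5 in celecoxib and from 0.466 through 1.8 to 3.05 in rofecoxib libraries. The spread within a group was as large as the difference between groups, with log2 fold changes of 0.63 ± 0.35 for celecoxib and 0.54 ± 0.35 for rofecoxib against control (edgeR adjusted p = 0.359 and 0.325). The 95% intervals ran from -0.10 to 1.36 and from -0.19 to 1.27, so at this depth neither a rise of 1 on the log2 scale nor no change lies outside them.

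Ddah2, the abundant form, ran from 53.8 through 59.2 to 64.8 CPM in control, from 52.4 through 58.9 to 63.3 in celecoxib and from 46.7 through 55.2 to 63.0 in rofecoxib libraries. The 3 ranges lay largely on top of each other. Log2 fold changes were -0.02 ± 0.06 for celecoxib against control, -0.10 ± 0.06 for rofecoxib against control and 0.08 ± 0.06 for celecoxib against rofecoxib (edgeR adjusted p = 0.877, 0.252 and 0.336). The 95% intervals of the differences from control, -0.14 to 0.09 and -0.22 to 0.02, bound them more closely than for Ddah1. After GC correction the rofecoxib difference turned to 0.04 and that between the drugs to -0.12, and neither was called.

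Gucy1a3 and Gucy1b3 encode the alpha-1 and beta-1 subunits of soluble guanylate cyclase, the receptor of nitric oxide in smooth muscle. Gucy1a3 ran from 197 through 233 to 275 CPM in control, from 197 through 239 to 272 in celecoxib and from 254 through 269 to 310.5 in rofecoxib libraries. All 8 rofecoxib libraries lay above the means of both other groups, while 1 control library, control 4, reached into their range. The log2 fold change for rofecoxib against control was 0.24 ± 0.07 (edgeR adjusted p = 0.0395), from 232 ± 23 to 275 ± 18.6 CPM (SD, n = 8). For celecoxib against control it was 0.02 ± 0.07 (edgeR adjusted p = 0.892). Celecoxib stood below rofecoxib by a log2 fold change of -0.22 ± 0.07 (edgeR adjusted p = 0.0223).

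The rofecoxib call for Gucy1a3 lay close to the threshold. It was lost, with edgeR adjusted p-values of 0.0512 to 0.0868, when any 1 of control 3, 5, 6, 7 or 8, celecoxib 4 or rofecoxib 1, 2, 3, 6, 7 or 8 was left out, and the fold change then ran from 0.20 to 0.26. Without rofecoxib 7 and 8 the fold change was 0.27 (edgeR adjusted p = 0.0892), and without control 6 and rofecoxib 2 it was 0.21 (edgeR adjusted p = 0.108). After GC correction it was 0.17 ± 0.06 (edgeR adjusted p = 0.128). Some smooth muscle markers were higher in both drug groups. Their summed level was 35713 to 48798 CPM in control, 43563 to 53268 in celecoxib and 45130 to 54116 in rofecoxib libraries, and all 10 were detected. Of the 10, Acta2 and Tagln were called higher with each drug (edgeR adjusted p for Acta2 = 0.035 for celecoxib and 0.036 for rofecoxib), while with rofecoxib Smtn had a log2 fold change of -0.09 and Lmod1 of -0.00, neither called. With GC correction 1 of the 10, Tagln, was called higher with rofecoxib, and 3 of the 10 were called higher with celecoxib. With the smooth muscle marker score as a covariate the rofecoxib difference was 0.09 (edgeR adjusted p = 0.435). The difference between the drugs was -0.20 ± 0.05 in that fit (edgeR adjusted p = 0.00729) and -0.13 after GC correction (edgeR adjusted p = 0.168). It lost its call when celecoxib 7, celecoxib 8 or rofecoxib 1 was left out (edgeR adjusted p = 0.0501 to 0.0529).

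Gucy1b3 ran from 191 through 260.4 to 299 CPM in control, from 223 through 238 to 271 in celecoxib and from 254 through 285 to 331 in rofecoxib libraries. The control group was the widest and overlapped both others, with control 6 as its lowest library. The log2 fold change was -0.08 ± 0.07 for celecoxib against control (edgeR adjusted p = 0.631) and 0.17 ± 0.07 for rofecoxib against control (edgeR adjusted p = 0.137). Between the drugs it was -0.25 ± 0.07 (edgeR adjusted p = 0.0203), with all 8 celecoxib libraries below the rofecoxib mean, and no single library decided the call. Without rofecoxib 7 and 8 together it was -0.24 (edgeR adjusted p = 0.0743), and after GC correction -0.14 ± 0.06 (edgeR adjusted p = 0.144). Both subunit genes thus had a higher mean with rofecoxib than with celecoxib.

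Npr1, which encodes the guanylate cyclase receptor of atrial natriuretic peptide, showed the smallest p between the drugs among the members. Its level ran from 414 through 462 to 502 CPM in control, from 414 through 498 to 577 in celecoxib and from 329 through 399.6 to 492 in rofecoxib libraries. Overlap came from celecoxib 2 at the bottom of its group and rofecoxib 1 at the top of its own. Group means were 459 ± 26.6, 513 ± 57.5 and 404 ± 47.0 CPM, with controls between the drugs. Against control the log2 fold change was 0.16 ± 0.07 for celecoxib (edgeR adjusted p = 0.238) and -0.19 ± 0.07 for rofecoxib (edgeR adjusted p = 0.0938). The latter was called when rofecoxib 1 was left out (-0.25, edgeR adjusted p = 0.0407), while after GC correction it was -0.07 ± 0.06 (edgeR adjusted p = 0.555). Celecoxib against rofecoxib gave 0.35 ± 0.07 (edgeR adjusted p = 0.00247). This held in all 24 fits that left out 1 library and without rofecoxib 7 and 8 (0.29, edgeR adjusted p = 0.0172). After GC correction it was 0.19 ± 0.06 (edgeR adjusted p = 0.059), where genes of the same GC content differed by 0.16.

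Prkg1 encodes the cyclic GMP-dependent protein kinase of smooth muscle. Its level ran from 3.25 through 4.90 to 5.83 CPM in control, from 2.31 through 4.51 to 5.82 in celecoxib and from 3.87 through 5.20 to 14.9 in rofecoxib libraries. Rofecoxib 7 and 8 alone lay outside the range of the rest, with 324 and 318 counts against 86 to 123 in the other rofecoxib libraries. Cstf2t, the gene inside Prkg1, did not stand out in them, with 848 and 876 counts. The log2 fold change was -0.17 ± 0.27 for celecoxib and 0.59 ± 0.27 for rofecoxib against control (edgeR adjusted p = 0.797 and 0.162), and -0.76 ± 0.27 for celecoxib against rofecoxib (edgeR adjusted p = 0.047). Without rofecoxib 7 and 8 the last 2 were -0.02 (edgeR adjusted p = 0.96) and -0.15 (edgeR adjusted p = 0.625). The call between the drugs was also lost when any 1 of control 1, 2, 4, 5, 7 or 8, celecoxib 1, 3, 5, 6, 7 or 8 or rofecoxib 7 or 8 was left out (edgeR adjusted p = 0.0504 to 0.141). For the control libraries the fold change stayed at -0.76 (edgeR adjusted p = 0.0504 to 0.053), and without rofecoxib 7 or rofecoxib 8 it was -0.52 or -0.54. With GC correction the difference was not called (-0.59, edgeR adjusted p = 0.127).

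Pde5a encodes the phosphodiesterase that breaks down cyclic GMP and is the target of sildenafil. It ran from 210.2 through 266 to 288 CPM in control, from 227 through 246 to 273 in celecoxib and from 234 through 285 to 304 in rofecoxib libraries. All 8 celecoxib libraries lay below the rofecoxib mean, and the ranges overlapped widely. The log2 fold changes were -0.05 ± 0.06 for celecoxib against control, 0.10 ± 0.06 for rofecoxib against control and -0.15 ± 0.06 for celecoxib against rofecoxib (edgeR adjusted p = 0.706, 0.309 and 0.0814). The last had a 95% interval of -0.28 to -0.02. It was called when control 6 or rofecoxib 5 was left out (edgeR adjusted p = 0.0305 to 0.0441). It was also called with library totals in place of TMM, with only the 2 groups compared, without control 6 and rofecoxib 2 and with a covariate for the brown adipocyte score (edgeR adjusted p = 0.0326 to 0.0468). After GC correction it was -0.08 (edgeR adjusted p = 0.335).

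Between the drugs, the sign of the difference followed transcript GC content for 8 of the 10 members. The same trend ran over 12130 genes, with Spearman's rho of 0.59, so it was not particular to the members. The share of all genes with such a sign was not counted. The transcripts of Prkg1 (41.5% GC), Cav1 (42.6%), Gucy1b3 (43.8%), Gucy1a3 (44.7%) and Pde5a (46.8%) are below the median of 49.9% of the genes tested, and all 5 had negative log2 fold changes for celecoxib against rofecoxib. Those of Npr1 (57.4%), Nos3 (58.2%) and Ddah2 (59.4%) are above it and had positive ones. Ddah1 (49.5%) and Prmt1 (54.7%) had changes of 0.09 and -0.02. After GC correction Ddah2 changed sign, and no member remained called between the drugs. The promoter windows do not follow this order: that of Pde5a is GC-rich, while its transcript is below the median.

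**Figure D3:**
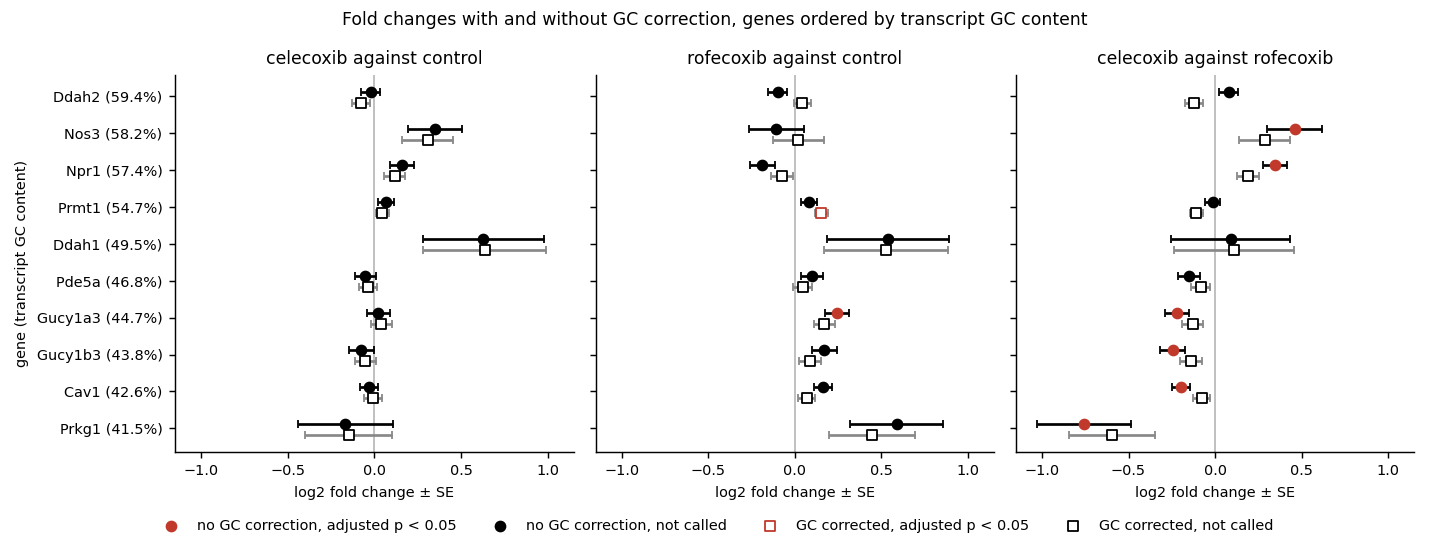
Log2 fold change ± SE of each member in the 3 comparisons, ordered by transcript GC content, without (circles) and with (squares) GC correction, red where the adjusted p was under 0.05. Between the drugs, 6 circles and 0 squares are red, and the squares lie closer to 0 for all 6.

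Across libraries, after the mean of each group was subtracted, 4 of the 45 pairs of members had a Pearson correlation that passed a permutation test adjusted over the 45 pairs, and 0 did with Spearman's rho. All values are of log2 CPM over 24 libraries, which share their scaling and composition. Gucy1b3 and Pde5a, the receptor subunit and the enzyme that ends its signal, rose and fell together (r = 0.69, permutation p = 0.00106, adjusted 0.0239; rho = 0.66, adjusted 0.0589). Within groups r was 0.68 in control, 0.45 in celecoxib and 0.89 in rofecoxib, and without the 2 libraries farthest from the median of Gucy1b3 it was 0.51.

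The subunits Gucy1a3 and Gucy1b3 had r = 0.60 (permutation p = 0.00222, adjusted 0.0333; rho = 0.49, adjusted 0.0909), with 0.87 in control, 0.50 in celecoxib and 0.28 in rofecoxib libraries. Without the 2 libraries farthest from the median of Gucy1a3 r was 0.59. In the pairs that follow, the 2 farthest are taken from the median of Ddah1 and of Cav1. Ddah1 ran opposite to Gucy1b3 (r = -0.57, permutation p = 0.00086, adjusted 0.0239; rho = -0.55, adjusted 0.0906), with -0.76 in control, -0.58 in celecoxib and -0.64 in rofecoxib libraries and -0.61 without the 2 farthest libraries. Cav1 ran opposite to Ddah2 (r = -0.58, permutation p = 0.004, adjusted 0.045; rho = -0.54, adjusted 0.0906), with -0.81 in control, -0.43 in celecoxib and -0.56 in rofecoxib libraries and -0.45 without the 2 farthest. After GC correction the 4 values were 0.59, 0.45, -0.60 and -0.49. The promoters of Gucy1a3, Gucy1b3 and Pde5a were chosen for printing because of the positive pairs, so their presence above is no separate result. Npr1 passed with no other member.

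**Figure D4:**
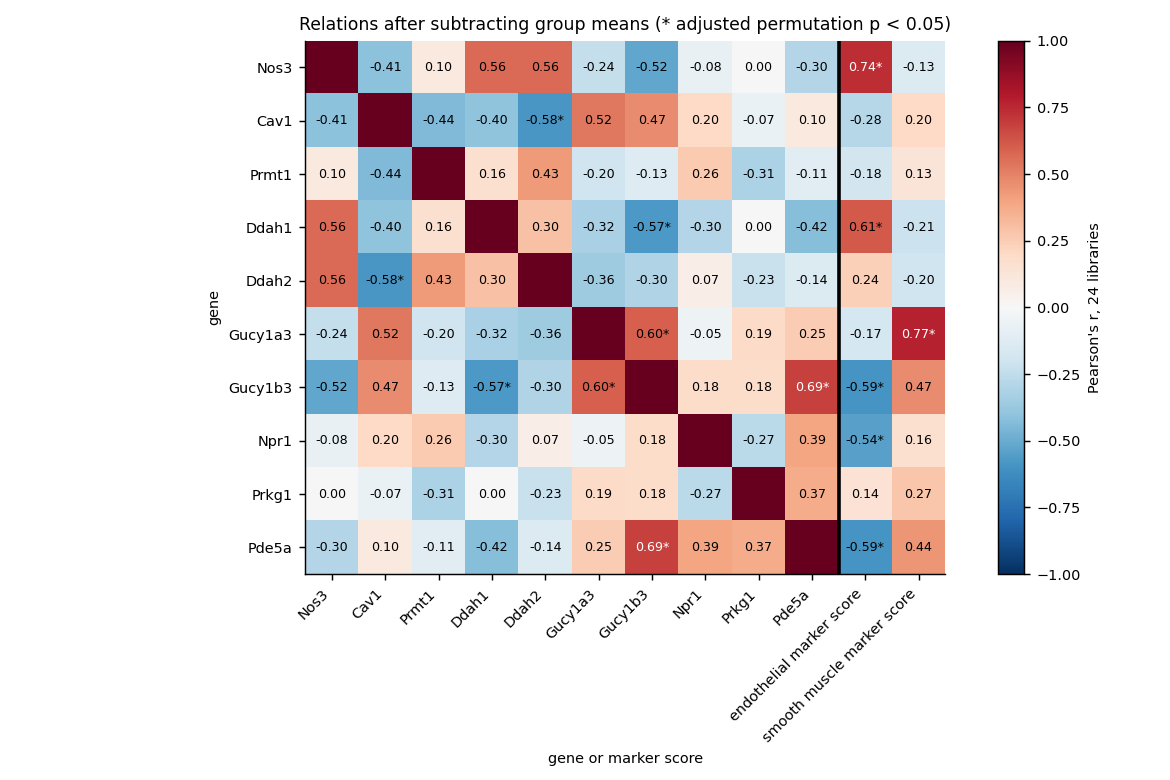
Pearson's r between members, and of members with the endothelial and smooth muscle marker scores, over 24 libraries after subtracting group means, with an asterisk where the adjusted permutation p was under 0.05. Asterisks mark 4 of 45 pairs of members and 6 of 20 relations with a score.

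The endothelial and smooth muscle marker scores are set beside these relations, and their part in them was not tested. Of 20 relations of a member with a score, 6 passed with Pearson's r. Nos3 rose with the endothelial score (r = 0.74, adjusted permutation p = 0.0058; rho = 0.53, adjusted 0.0529), with 0.53 in control, 0.22 in celecoxib and 0.92 in rofecoxib libraries. Without the 2 libraries farthest from the median of Nos3 it was 0.48. Ddah1 also rose with it (r = 0.61, adjusted 0.0233; 0.59 without 2). Gucy1b3 (r = -0.59, adjusted 0.0058; -0.61 without 2), Pde5a (r = -0.59, adjusted 0.0178; -0.52 without 2) and Npr1 (r = -0.54, adjusted 0.0479; -0.24 without 2) ran opposite to it. For each member, the 2 left out were farthest from its own median. For Ddah1, Gucy1b3, Pde5a and Npr1, rho was 0.55, -0.59, -0.61 and -0.40 (adjusted permutation p = 0.0425, 0.0288, 0.0288 and 0.15). The relations of Nos3 and Npr1 with the endothelial score thus did not pass with rho. Leaving out 2 libraries weakened the relation of Npr1 most, although within control, celecoxib and rofecoxib libraries it was -0.58, -0.67 and -0.51. The 5 relations with the endothelial score were 0.76, 0.60, -0.63, -0.61 and -0.60 with GC correction, in the order named. Gucy1a3 rose with the smooth muscle score (r = 0.77, adjusted 0.0014; rho = 0.71), at 0.83, 0.77 and 0.67 within control, celecoxib and rofecoxib libraries and 0.69 without 2. After GC correction it was 0.73. Its partner Gucy1b3 had r = 0.47 with that score (adjusted 0.0779), which did not pass.

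**Figure D5:**
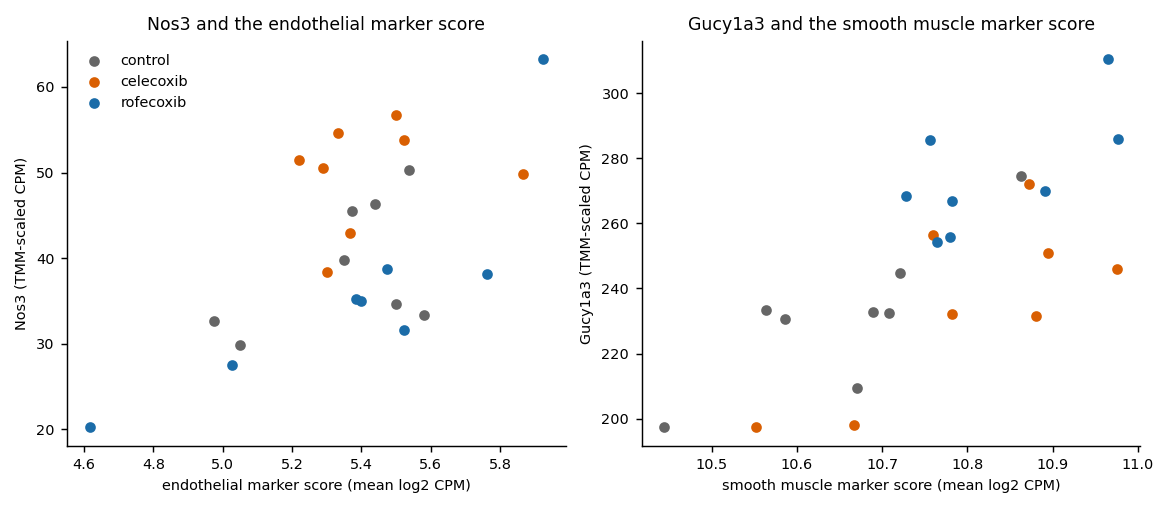
Left, Nos3 (CPM) against the endothelial marker score (mean log2 CPM of 14 markers), and right, Gucy1a3 (CPM) against the smooth muscle marker score (10 markers), each point 1 library, coloured by group. Rofecoxib 1 and rofecoxib 5 mark both ends of the left plot, at 20.2 and 63.3 CPM of Nos3.

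Other genes of the same signalling steps were listed by function, 71 in all, of which 62 passed the filter. Between celecoxib and control 0 of the 62 were called by edgeR, against 1.41% of all genes, with 9 at an unadjusted p under 0.05, against 17.3% of all genes. DESeq2 also called 0. Between rofecoxib and control 2 of 62 were called, both higher, against 5.3% of all genes. Pde1c, a calmodulin-dependent phosphodiesterase, went from 0.533 ± 0.125 to 1.8 ± 1.38 CPM (SD, n = 8), a log2 fold change of 1.74 ± 0.44 (edgeR adjusted p = 0.0291). Rofecoxib 1 and 3 stood out at 4.03 and 3.73 CPM, and leaving out either, rofecoxib 7, control 5 or control 7 ended the call (edgeR adjusted p = 0.0506 to 0.0572). Calm2, 1 of the genes for calmodulin, which activates the endothelial synthase, went from 386 ± 20.2 to 428 ± 22.3 CPM (0.15 ± 0.04, edgeR adjusted p = 0.0404). Its call ended when any 1 of control 2, 3, 5, 6 or 7, celecoxib 4 or rofecoxib 2, 3, 6 or 8 was left out (edgeR adjusted p = 0.0528 to 0.0751). After GC correction 0 of the 62 were called against control for either drug.

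Between celecoxib and rofecoxib 12 of the 62 were called, 6 higher and 6 lower with celecoxib, against 22.7% of all genes, so the share of the list was no higher than that of all genes. Akt1, the kinase that phosphorylates and activates the endothelial synthase, was higher (0.24 ± 0.05, edgeR adjusted p = 0.00294), as were the arginine methyltransferase gene Carm1 (0.31 ± 0.07, edgeR adjusted p = 0.00561) and Npr2, the receptor of C-type natriuretic peptide (0.21 ± 0.05, edgeR adjusted p = 0.00939). Calm2 (-0.18 ± 0.04, edgeR adjusted p = 0.00517), the superoxide and peroxide producing oxidase gene Nox4 (-0.26 ± 0.07, edgeR adjusted p = 0.0108) and the phosphodiesterase gene Pde1a (-0.21 ± 0.06, edgeR adjusted p = 0.0148) were lower. Prmt5, Prmt7 and Prkcdbp were also higher, and Cav2, Ppp1r12a and Itpr1 lower. Without rofecoxib 7 and 8 the count was 4 of 62, and after GC correction 2 of 62, Carm1 and Itpr1. Akt1, Carm1 and Npr2 were at their lowest of all libraries in rofecoxib 7 and 8, at 171 and 169, 41.7 and 43.9, and 178 and 174 CPM.

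The other nitric oxide synthases were scarce. Nos1, the neuronal form, averaged 0.543 ± 0.265 CPM and Nos2, the inducible form, 1.32 ± 1.2 CPM in controls (SD, n = 8), against 39.0 CPM for Nos3, on a scale that is not corrected for length. Nos2 was at 0.685 ± 0.329 with celecoxib and 0.695 ± 0.356 with rofecoxib and was not called (edgeR adjusted p = 0.251 and 0.163), and control 6 alone reached 4.05 CPM. Gch1, which supplies the synthase cofactor tetrahydrobiopterin, was at 3.53 ± 0.673 CPM in controls, with log2 fold changes that did not pass. Npr3, the clearance receptor of natriuretic peptides, and Mrvi1, a substrate of the cyclic GMP-dependent kinase, were not called in any comparison. The same was true of Pde3a, a phosphodiesterase that cyclic GMP inhibits, which was at 58.1 ± 18.8 CPM with rofecoxib, with rofecoxib 7 and 8 highest at 87.5 and 84.0. Arg1, Arg2 and the natriuretic peptide genes Nppa, Nppb and Nppc were among the 9 that did not pass the filter.

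For Nos3, Gucy1b3 and each member called in a comparison, the genes most like it were found by Pearson correlation over the 24 libraries after subtracting group means, among 12174 genes. Closest to Nos3 were Pkn3 (r = 0.93), the cation channel gene Trpv4 (0.92) and Kif26a (0.89). Closest to Gucy1b3 were the Wnt sorting gene Wls (0.92), Tbc1d12 (0.91) and the proton pump subunit gene Atp6v1a (0.90). Gucy1a3 was closest to Kalrn (0.91), Dpysl3 (0.91) and the caldesmon gene Cald1 (0.89), and Npr1 to Gga2 (0.86), E030010A14Rik (0.86) and Zdhhc18 (0.84). For Prkg1 they were Ankhd1 (0.93), Tead1 (0.92) and Mdm4 (0.92), and for Cav1 the values were lower, with Tub (0.77), Fam120a (0.77) and the integrin gene Itgb3 (0.72). After GC correction the 3 for Cav1 fell to between 0.45 and 0.59, and those for Npr1 to between 0.71 and 0.81. Those for Gucy1b3 were 0.83 to 0.85, for Gucy1a3 0.84 to 0.85, for Nos3 0.86 to 0.92 and for Prkg1 0.90 to 0.92. Without the 2 libraries farthest from the median of the member, r was 0.84 to 0.87 for Prkg1 and 0.78 to 0.86 for Nos3. For Gucy1b3 it was then 0.85 to 0.88, for Gucy1a3 0.86 to 0.89, for Npr1 0.79 to 0.82 and for Cav1 0.71 to 0.72. All are the 3 highest of 12174 values and were not tested.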

How the data were processed

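Polyadenylated RNA of mouse thoracic aorta had been sequenced in 24 libraries, 8 per group. The submitters' processing notes name CASAVA 1.8.2, STAR 2.5.1b and mm9. Neither counter nor annotation is named in these sources. Per gene, the authors deposited whole-number counts. Library totals ran from 21652432 to 21687906, too close for raw totals, and how they were equalised is not stated.

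Counts were tested with edgeR 4.0.16 in R 4.3.3: genes passing filterByExpr, TMM factors (0.959 to 1.03), a robust quasi-likelihood fit with 1 mean per group over all 24 libraries and 21 residual degrees of freedom, and Benjamini-Hochberg adjustment over 14451 genes. SE is the absolute log2 fold change over the square root of F, and CPM is scaled by TMM. GC correction used the GC content of GENCODE M21 transcripts on GRCm38, available for 97.1% of the table and 99.1% of the genes tested (Prmt1 by symbol), and subtracted a lowess curve (span 0.3) per library. Exon length came from the same annotation. Correlations were computed on log2 CPM (prior count 2) with 100000 permutations within groups. DESeq2 1.42.0, other scalings, filters, covariates and left-out libraries were alternatives, and scripts were tested on simulated data.

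All members were named. Of the pathway genes, the up to 6 called genes with the smallest p per comparison were named with values, besides Nos1, Nos2, Gch1, Npr3, Pde3a and Mrvi1. The other called pathway genes, Pde3a and Nos2 in single libraries were named after their values were seen. The members and lists were chosen with earlier results of these data known. No protein sequences were used here.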

Additional observations from a re-analysis of the deposited data

Results flagged for a closer look

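Among 84 groups of 8 libraries (28 genes), 6 had a library whose gap to its nearest neighbour, divided by the range of the group, was above Dixon's critical value of 0.526. Chance marks about 1 in 20 groups. One concerned a member: Nos3 reached 63.3 CPM in rofecoxib 5, against 20.2 to 38.7 CPM in the other 7 rofecoxib libraries. Nos2 was at 4.05 CPM in control 6. Npr3 was at 43.8 CPM in control 6 and at 40.5 CPM in celecoxib 4. Mrvi1 was at 625.7 CPM in rofecoxib 1. Pde1a was at 44.0 CPM in control 3.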

How the results depend on the processing

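Fits that left out 1 library gave 42 to 312 genes called for celecoxib against control, 170 to 1121 for rofecoxib against control and 2147 to 3739 for celecoxib against rofecoxib. Members called ran from 0 to 0, 0 to 2 and 3 to 7, and other pathway genes from 0 to 1, 0 to 4 and 8 to 19. The count of members fell to 0 for rofecoxib against control without any 1 of control 5, 6, 7 or 8, celecoxib 4 or rofecoxib 2, 3, 6, 7 or 8, rose to 2 without rofecoxib 4, and fell to 3 between the drugs without celecoxib 7 or celecoxib 8.

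For celecoxib against control, genes called came to 477 with DESeq2, 86 with no filter on low counts, 88 with only the 2 groups compared, 307 with GC correction, and 91 and 8 with the smooth muscle and brown adipocyte scores as covariates; members called were 0 in each.

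For rofecoxib against control, genes called, members called and other pathway genes called came to 1568, 2 and 6 with DESeq2, to 294, 0 and 1 with no filter, to 215, 0 and 1 without control 6 and rofecoxib 2, and to 37, 0 and 0 without rofecoxib 7 and 8, an alternative chosen after seeing the data. With GC correction they were 228, 1 and 0, with only the 2 groups compared 461, 1 and 1, with the smooth muscle score 20, 0 and 0, and with the brown adipocyte score 365, 0 and 1. With the endothelial score 2 members were called.

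For celecoxib against rofecoxib the same 3 counts were 1430, 0 and 2 with GC correction and 1326, 3 and 4 without rofecoxib 7 and 8. The causes of these shifts were not tested.

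The replicate numbers did not pair the libraries: 9 of 24 same-number pairs correlated over 0.1, and a library matched its own number best in 6 of 48 cases. With the replicate number as a block, 187, 653 and 3193 genes and 0, 1 and 5 members were called in the 3 comparisons, and 1 other pathway gene for rofecoxib against control. The block with GC correction gave 370, 164 and 1525 genes, 0 members in each comparison, and 0, 1 and 1 other pathway genes.

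Fold changes of members that changed sign were not called before or after. Ddah2 turned to 0.0024 for celecoxib against control with the smooth muscle score, to 0.044 and 0.045 for rofecoxib against control and to -0.12 and -0.12 between the drugs with GC correction, without and with the block. Gucy1a3 turned to -0.0096, -0.10 and -0.026 for celecoxib against control without control 6 and rofecoxib 2 and with the smooth muscle and brown adipocyte scores. Nos3 turned to 0.020 for rofecoxib against control with GC correction, and Prkg1 from 0.59 to -0.022 without rofecoxib 7 and 8. With 1 library left out, Ddah1 ran from -0.12 to 0.26 and Prmt1 from -0.051 to 0.011 between the drugs, and Gucy1a3 from -0.0097 to 0.062 for celecoxib against control. Ddah1, with 10 to 75 counts per library, had the widest SE of the members against control.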
